A study of Mus musculus with 8 samples.

Results

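The genes described here encode ligands and partner receptors through which tumour and antigen-presenting cells stimulate or restrain T cells. They are Cd274, Pdcd1lg2, Cd80, Cd86, Icosl, Cd276, Cd40, Lgals9 and Havcr2. They were taken by gene symbol, with every probe set whose only symbol in the platform annotation was a member's, which gave 16 probe sets of 9 genes among 34945 such probe sets of 18193 genes. The arrays held RNA labelled as coming from tumour epithelial cells of 4T1.2, a mouse mammary carcinoma line that spreads to bone in syngeneic Balb/c mice. The compared groups were 4 spine metastases and the 4 mammary gland primary tumours of the same mice, and both groups carried the same untreated tumour line. The labels do not give the age of the mice or the gate used to isolate the cells.

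T cells need a second signal beside antigen, and members of the B7 family deliver it. CD80 and CD86 activate T cells through CD28 and restrain them through CTLA-4, and the ICOS ligand acts through ICOS. PD-L1, the product of Cd274, and PD-L2, the product of Pdcd1lg2, restrain T cells through PD-1. CD40 on antigen-presenting cells receives CD40 ligand from helper T cells and raises CD80 and CD86, and galectin-9 is a reported ligand of TIM-3, the product of Havcr2. In tumours PD-L1 is known as a gene that interferon gamma induces, and macrophages and dendritic cells carry much of the CD80, CD86 and CD40.

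The promoter windows of 3 genes are shown. Cd274 and Pdcd1lg2 are neighbours of which only Cd274 was called lower in metastases, and Lgals9, which was not called, holds matches to an interferon motif. Each is the RefSeq sequence of GRCm38.p6 in the direction of its gene, with 250 bases before and 50 after the annotated start, and capitals mark motif matches. The table held such a window for 7 of the 9 genes. The start used for Cd274 lies inside the gene's annotated extent.
Cd274 promoter window, chr19:29367188-29367487, plus strand: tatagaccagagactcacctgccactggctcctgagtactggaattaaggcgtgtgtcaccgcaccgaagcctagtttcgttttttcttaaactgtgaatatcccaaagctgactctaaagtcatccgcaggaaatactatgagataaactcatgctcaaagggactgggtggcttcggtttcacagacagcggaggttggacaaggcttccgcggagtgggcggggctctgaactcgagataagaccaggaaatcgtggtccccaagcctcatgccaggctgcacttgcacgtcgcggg
Pdcd1lg2 promoter window, chr19:29410669-29410968, plus strand: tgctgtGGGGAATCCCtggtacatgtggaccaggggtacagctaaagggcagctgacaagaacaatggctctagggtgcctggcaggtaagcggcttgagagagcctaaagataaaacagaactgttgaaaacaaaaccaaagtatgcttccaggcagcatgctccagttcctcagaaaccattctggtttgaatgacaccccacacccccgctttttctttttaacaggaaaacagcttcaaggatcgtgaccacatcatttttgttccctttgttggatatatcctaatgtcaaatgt
Lgals9 promoter window, chr11:78984875-78985174, minus strand: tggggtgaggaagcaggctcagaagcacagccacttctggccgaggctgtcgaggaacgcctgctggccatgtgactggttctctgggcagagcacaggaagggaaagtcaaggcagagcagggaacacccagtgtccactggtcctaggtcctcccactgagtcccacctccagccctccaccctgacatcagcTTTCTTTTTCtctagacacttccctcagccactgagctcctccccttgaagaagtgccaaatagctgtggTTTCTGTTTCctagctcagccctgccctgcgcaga

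The motifs searched on both strands were the interferon-stimulated response element core (GAAA, any 2 bases, GAAA), the gamma-activated site (TTCNNNGAA) and the NF-kappaB consensus. The Lgals9 window held 2 matches to the first, both on the opposite strand, beginning at position -55 and at position 16 counted from the start, and 3.44% of 32851 promoter windows held at least 1. The Pdcd1lg2 and Icosl windows each held 1 match to the NF-kappaB consensus, which 8.46% of all windows held. None of the 7 windows held the gamma-activated site, found in 8.30% of all windows, and the Cd274 window held none of the 3 motifs. These matches describe letters in the windows only.

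In bone metastases, 6 of the 16 probe sets were called lower than in primary tumours, none was called higher, and 10 were not called (limma with Benjamini-Hochberg adjustment over 34945 probe sets, adjusted p under 0.05). Among all probe sets 11.9% were called lower and 8.72% higher. At an unadjusted p under 0.05, 8 of the 16 passed. The 6 calls fell in Cd274, Cd80, Cd86 and Cd40, and 5 genes had none. The median log2 difference, metastasis minus primary, was -0.41 over the 16 probe sets and 0.09 over all probe sets. After scaling to the 75th percentile these medians were -0.21 and 0.29, and with the dim probe sets left out they were -1.05 and -0.10. The same 6 probe sets were the ones whose groups did not overlap with metastases below primary tumours, which held for 14.0% of all probe sets. The median member difference within a mouse was -0.69, -0.65, -0.60 and -0.50 in mice 1 to 4. Without mouse 3 the count of lower probe sets was 3, with 3.68% of all probe sets lower in that fit, and without mouse 4 it was also 3, with 5.40%. With metastases 1 and 3 left out it was 4, with 8.06%: Cd274, 1 Cd80 and 1 Cd40 probe set, and Lgals9, which was not among the 6. The brightest probe set of each gene gave 2 of 9 genes, with 12.1% of all genes lower.

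**Figure D1:**
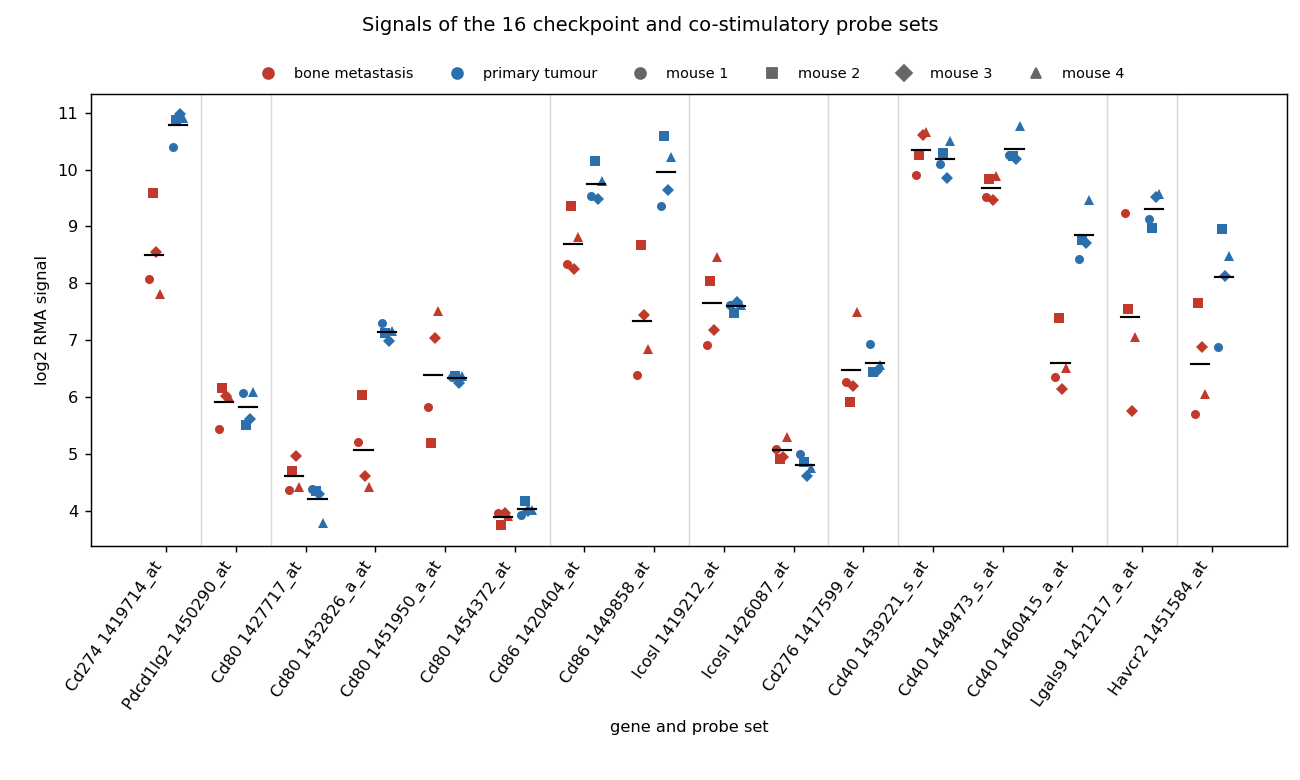
Log2 RMA signal (vertical axis) of each of the 16 probe sets on every array, bone metastases in red to the left of primary tumours in blue, marker shape giving the mouse and the bar the mean of 4 arrays. Cd274, 1 Cd80, both Cd86 and 2 Cd40 probe sets show all metastasis arrays below all primary arrays.

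The metastasis arrays differed from the primary arrays in RNA quality and cell markers, and these values stand beside every result. The actin signal dropped from its 3′ to its 5′ control probe set by 4.55 to 6.18 on the log2 scale in metastases and by 1.08 to 1.90 in primary tumours (exact permutation p = 0.0286 of 8 arrays taken as unpaired, the smallest p possible). Gapdh dropped by 4.62 to 6.08 in metastases and by 1.55 to 2.59 in primary tumours, with the same p. Array medians of the log2 signal were 5.23 to 5.42 in metastases and 5.16 to 5.17 in primary tumours. Arrays correlated across probe sets at 0.896 to 0.953 within metastases and 0.979 to 0.992 within primary tumours. With the actin drop as a covariate, which is nearly tied to the group (r = 0.96), 0 of 34945 probe sets were called, 4552 had an unadjusted p under 0.05, and the differences of Cd274 and of the lower Cd80 probe set changed sign.

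PD-L1 transcript fell in bone metastases, by about a factor of 4.87, while its neighbour PD-L2 was not called. Cd274 (probe set 1419714_at, chromosome 19, 29362107 to 29388095 in GRCm38.p6) had log2 signals of 8.07, 9.58, 8.55 and 7.81 in the metastases of mice 1 to 4, against 10.39, 10.87, 10.97 and 10.91 in their primary tumours. Every metastasis lay below every primary tumour, and the metastasis of mouse 2 was the highest of its group. The log2 difference was -2.28 with a standard error (SE) of 0.36 (limma adjusted p = 0.00438), and it was negative in all 4 mice, from -3.10 in mouse 4 to -1.28 in mouse 2. The call was kept with any single array or mouse left out, with adjusted p values from 0.000525 to 0.0480.

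Pdcd1lg2 (1450290_at, chromosome 19, 29410919 to 29472927) begins 22.8 kb beyond the end of Cd274. Its log2 signals were 5.44, 6.16, 6.02 and 6.01 in metastases and 6.07, 5.51, 5.62 and 6.09 in primary tumours. The groups overlapped, and the mice split evenly in direction. The log2 difference was 0.08 (SE 0.21), with a 95% interval from -0.40 to 0.57 (limma adjusted p = 0.796). Pdcd1lg2 averaged 5.82 in primary tumours, where the array medians averaged 5.17. A fall as large as that of Cd274 might therefore not show in full on this probe set, and the contrast that follows carries this limit. The Cd274 difference exceeded that of Pdcd1lg2 in size: Cd274 minus Pdcd1lg2 was 2.59 ± 0.67 in metastases and 4.96 ± 0.50 in primary tumours (SD, n = 4 each, exact permutation p = 0.0286). That test was 1 of 12 such comparisons of probe sets, the other 11 within a gene, and its adjusted p was 0.0490. These permutations take the 8 arrays as unpaired. A sign permutation within the 4 mice, added after seeing the data, cannot give a p under 0.125, and it gave exactly that p for Cd274 minus Pdcd1lg2 and for the Cd86 and Cd40 comparisons given next, each with 1 direction in all 4 mice.

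CD86, the B7 ligand carried by macrophages, dendritic cells and B cells, fell on both of its probe sets. Cd86 probe set 1449858_at (chromosome 16, 36568956 to 36666158) had log2 signals of 6.39, 8.67, 7.45 and 6.85 in metastases, against 9.36, 10.59, 9.64 and 10.22 in primary tumours. The metastasis of mouse 2 was again the highest of its group, and the groups did not overlap. On the log2 scale the difference was -2.61 (SE 0.49, limma adjusted p = 0.00809), a 6.11-fold fall. The call was lost without mouse 3 (adjusted p = 0.0578) and without mouse 4 (0.0657).

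The other Cd86 probe set, 1420404_at, had log2 signals of 8.34, 9.37, 8.25 and 8.81 in metastases and 9.54, 10.15, 9.48 and 9.81 in primary tumours. The groups were separate here too, by a narrow margin between metastasis 2 and primary tumour 3. Its log2 difference was -1.05 (SE 0.27, limma adjusted p = 0.0280). This call was lost in 13 of 21 alternatives. They included quantile normalization (limma adjusted p = 0.125), scaling to the 75th percentile (0.0528) and the joint omission of metastases 1 and 3 (0.131). The omission of any of 5 single arrays also lost the call: metastasis 1 or 3, or primary tumour 2, 3 or 4. The 2 Cd86 probe sets differed in the size of the fall by 1.56 on the log2 scale (exact permutation p = 0.0286, adjusted p = 0.0490 over the 12 comparisons).

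CD80, the other ligand of CD28 and CTLA-4, was called on 1 of its 4 probe sets. Cd80 probe set 1432826_a_at (chromosome 16, 38457430 to 38495958) had log2 signals of 5.21, 6.04, 4.62 and 4.42 in metastases, against 7.30, 7.13, 6.99 and 7.16 in primary tumours. All metastases lay below all primary tumours, and the metastasis mean of 5.07 lay under the array median, so the size of the fall is not exact. Its log2 difference was -2.07 (SE 0.33, limma adjusted p = 0.00429), and the call was kept with any single array or mouse left out.

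The brightest Cd80 probe set, 1451950_a_at, had log2 signals of 5.83, 5.20, 7.04 and 7.52 in metastases and 6.36, 6.37, 6.25 and 6.36 in primary tumours. The primary tumours were nearly alike, and the metastases lay on both sides of them: mice 1 and 2 below, mice 3 and 4 above. The log2 difference was 0.06 (SE 0.46), with a 95% interval from -0.99 to 1.11 (limma adjusted p = 0.938). The remaining Cd80 probe sets, 1427717_at and 1454372_at, lay under the array median in both groups and had log2 differences of 0.41 (SE 0.20) and -0.13 (SE 0.12). Such dim probe sets could not show a fall, so no contrast with them is given. Their contrasts with 1432826_a_at still counted among the 12 permutation comparisons. They are part of the 7 that share the adjusted p of 0.0490, so that value leans on them. The contrast of 2.13 between 1451950_a_at and 1432826_a_at did not pass (exact permutation p = 0.114, adjusted p = 0.152).

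CD40, the receptor through which helper T cells license antigen-presenting cells, also depended on the probe set. Cd40 probe set 1460415_a_at (chromosome 2, 165055614 to 165071654) had log2 signals of 6.36, 7.40, 6.15 and 6.51 in metastases, against 8.44, 8.76, 8.70 and 9.47 in primary tumours. The groups were separate, with metastasis 2 the highest of its group. Metastasis minus primary was -2.24 on the log2 scale (SE 0.31, limma adjusted p = 0.00260), and the call was kept with any single array or mouse left out.

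On Cd40 probe set 1449473_s_at the log2 signals were 9.51, 9.83, 9.46 and 9.88 in metastases and 10.25, 10.24, 10.19 and 10.77 in primary tumours. This smaller gap gave a log2 difference of -0.69 (SE 0.18, limma adjusted p = 0.0298). The call was lost in 16 of 20 alternatives, among them both other scalings (adjusted p = 0.128 and 0.268) and the omission of any mouse or of any single array but metastases 2 and 4. The brightest Cd40 probe set, 1439221_s_at, had 9.90, 10.25, 10.60 and 10.65 in metastases and 10.09, 10.29, 9.84 and 10.50 in primary tumours, all as log2 signals. Those values overlapped throughout, with a log2 difference of 0.17 (SE 0.22) and a 95% interval from -0.33 to 0.66 (limma adjusted p = 0.605). The 3 Cd40 probe sets differed from each other in their log2 differences by 0.86, 1.55 and 2.41 (exact permutation p = 0.0286 each, adjusted p = 0.0490). By the platform's naming, an _a_at set is shared by alternative transcripts of its gene and an _s_at set by several transcripts, not always of 1 gene. Signal from other genes on the _s_at sets was not checked, and the positions of the 3 sets in Cd40 were not analysed here.

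**Figure D2:**
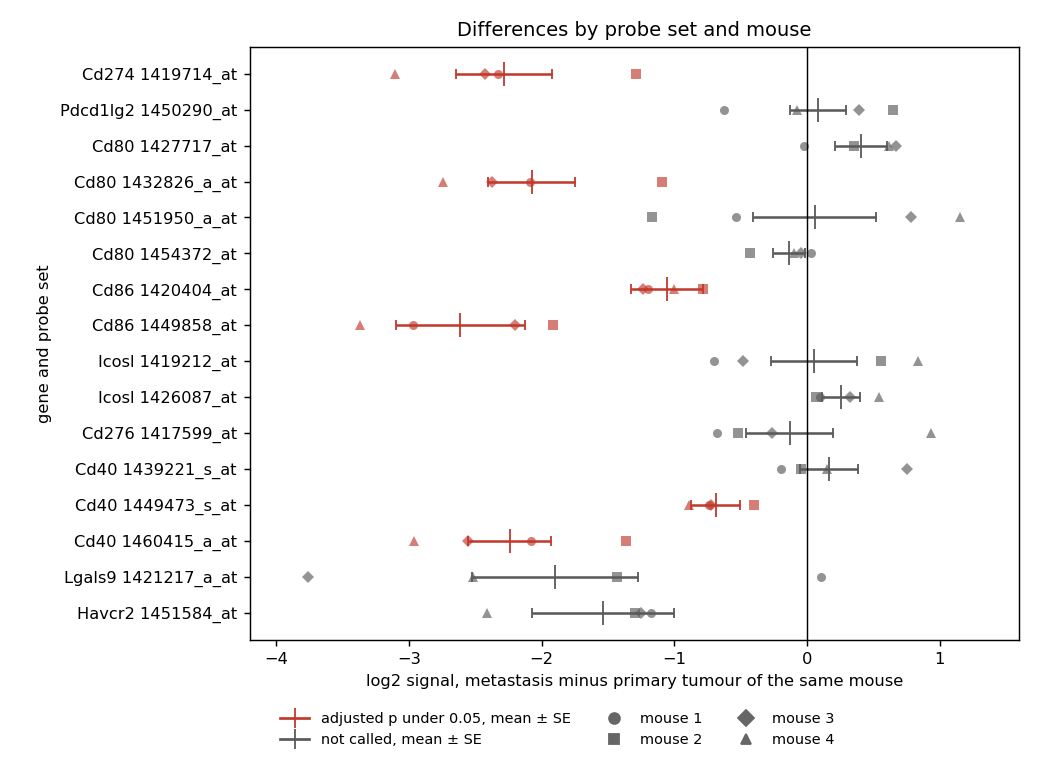
Log2 signal of the metastasis minus that of the primary tumour (horizontal axis) for each probe set, with 1 symbol per mouse. The bar gives the mean and the SE of the limma fit, red where the adjusted p was under 0.05. That fit takes the arrays as unpaired, so its SE is not the spread of the mouse symbols. The 4 mice lie left of 0 for all 6 called probe sets, and the probe sets of Cd80 and of Cd40 do not share a position.

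The TIM-3 axis lay lower in most mice without passing the test. Lgals9 (1421217_a_at, chromosome 11, 78962979 to 78984924) had log2 signals of 9.24, 7.55, 5.76 and 7.06 in metastases, against 9.13, 8.97, 9.52 and 9.57 in primary tumours. The metastasis of mouse 1 lay among the primary tumours and the other 3 lay below them. The log2 difference was -1.90 (SE 0.63, limma adjusted p = 0.0642), and without metastasis 1 it was -2.51 and was called (limma adjusted p = 0.00627). It was also called after scaling to the 75th percentile (limma adjusted p = 0.0455) and with metastases 1 and 3 left out (0.00699).

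Havcr2 (1451584_at, chromosome 11, 46454931 to 46481255), a receptor of exhausted T cells that myeloid cells also carry, had log2 signals of 5.70, 7.66, 6.88 and 6.06 in metastases. The primary tumours had 6.88, 8.96, 8.13 and 8.47. The groups overlapped because primary tumour 1 was low, yet the metastasis was lower in each of the 4 mice, by 1.18 to 2.41. In the unpaired fit the log2 difference was -1.53 (SE 0.53, limma adjusted p = 0.0760). With the mouse as a replicate block it was called (adjusted p = 0.0171), and also without primary tumour 1 (0.0326) or metastasis 2 (0.0311).

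The ICOS ligand and B7-H3 were not called. Icosl (1419212_at, chromosome 10, 78069368 to 78079525) had log2 signals of 6.91, 8.05, 7.18 and 8.46 in metastases and 7.61, 7.49, 7.67 and 7.62 in primary tumours. The metastases again lay on both sides of tightly grouped primary tumours, and the log2 difference was 0.05 (SE 0.32), with a 95% interval from -0.68 to 0.79 (limma adjusted p = 0.919). With metastases 1 and 3, whose Krt8 and Krt18 were low, left out, it was called higher (log2 difference 0.66, adjusted p = 0.0460). A dim second Icosl probe set, 1426087_at, had a log2 difference of 0.26 (SE 0.15). Cd276 (1417599_at, chromosome 9, 58524300 to 58555033), which encodes B7-H3, a ligand found on many tumours, had log2 signals of 6.27, 5.92, 6.20 and 7.50 in metastases and 6.94, 6.43, 6.46 and 6.56 in primary tumours. Mice 1 to 3 were lower and mouse 4 was higher, and the log2 difference was -0.13 (SE 0.33), with a 95% interval from -0.88 to 0.62 (limma adjusted p = 0.801).

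Among the 6 called probe sets, metastasis 2 held the highest metastasis value in 5 and metastasis 4 in 1, while the lowest value was held by metastasis 3 in 3, metastasis 4 in 2 and metastasis 1 in 1. The actin drop was smallest on metastasis 2 (4.55) and largest on metastasis 4 (6.18). The Gapdh drop was nearly the same on metastases 1 and 2 (4.66 and 4.62) and was larger on metastasis 3 (6.08) than on metastasis 4 (5.51). The part of either drop in the order was not tested.

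Of 53 further genes of these pathways, listed with earlier results of these data known, 48 were measured, each read at its brightest probe set. Of these, bone metastases had 15 lower, 2 higher and 31 with no call, against 12.0% lower and 9.93% higher over all 18193 genes read the same way. Their median log2 difference was -0.24, and that of all genes was 0.09. Tigit, Tnfsf18, Hmgb1 and Traf3 were among those not analysed here.

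In a list of other ligands, which also held receptors such as Sirpa and Cd200r1, 7 of 18 measured genes were called lower and none higher. The median log2 difference of the list was -0.75. Tnfsf9, which encodes 4-1BB ligand, averaged 6.73 ± 0.82 log2 signal in metastases and 9.43 ± 0.65 in primary tumours (SD, n = 4 each), a difference of -2.70 (SE 0.45, limma adjusted p = 0.00521). Cd48, whose product binds the receptor 2B4, averaged 5.77 ± 1.35 in metastases and 8.25 ± 0.51 in primary tumours, a log2 difference of -2.48 (SE 0.61, limma adjusted p = 0.0238). Vsir, which encodes the inhibitory B7 relative VISTA, averaged 7.79 ± 0.79 in metastases and 10.14 ± 0.39 in primary tumours, a log2 difference of -2.36 (SE 0.38, limma adjusted p = 0.00480). All 3 were lower in all 4 mice. The other called genes of the list, Sirpa, Tnfsf14, Pvr and Nectin2, had log2 differences from -2.18 to -0.94. The call of Cd48 was lost without metastasis 3, primary tumour 2 or 4, mouse 3 or mouse 4.

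In a list of lymphocyte receptors, which also held the ligand gene Cd40lg, 15 genes were measured. Of these, 12 were not called, 2 were called lower and 1 higher, with a median log2 difference of 0.32. Btla, an inhibitory receptor of B and T cells, averaged 7.75 ± 0.64 log2 signal in metastases and 5.63 ± 0.58 in primary tumours (SD, n = 4 each), a rise of 2.12 (SE 0.38, limma adjusted p = 0.00670) that was not called without mouse 3 (0.0511). Cd244a, which encodes 2B4, fell by 2.18 on the log2 scale (SE 0.40, limma adjusted p = 0.00777), a call lost without mouse 4 (0.0611). Tnfrsf9, the receptor of 4-1BB ligand, had a difference of -0.92 (SE 0.25, limma adjusted p = 0.0315), a call lost in 16 of 21 alternatives. The partner receptors of the B7 ligands had log2 differences of 0.40 (SE 0.42) for Pdcd1, 1.68 (SE 0.85) for Cd28, 0.08 (SE 0.79) for Ctla4 and 1.17 (SE 0.83) for Icos, with none called. Cd40lg, which encodes the ligand of CD40, had a log2 difference of 0.38 (SE 0.24) and was not called either. These values rested on single arrays or mice: with 1 left out, Pdcd1 lay between 0.02 and 0.76, Cd28 between 0.55 and 2.45, Icos between 0.45 and 2.09, Ctla4 between -0.77 and 0.80 and Cd40lg between 0.16 and 0.51. Icos was called higher without primary tumour 1 (2.00, limma adjusted p = 0.0428).

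Of 8 genes that carry the interferon gamma signal, 4 were called lower and none higher, with a median log2 difference of -0.65. Irf1, a transcription factor known to act on Cd274, averaged 10.64 ± 0.15 log2 signal in metastases and 11.82 ± 0.29 in primary tumours (SD, n = 4 each), a difference of -1.18 (SE 0.17, limma adjusted p = 0.00316). The receptor chain gene Ifngr1 changed by -1.22 (SE 0.19), the kinase gene Jak1 by -2.34 (SE 0.67, limma adjusted p = 0.0408) and Stat3 by -1.07 (SE 0.21). The Jak1 call was lost with the replicate block and with any primary array or metastasis 3 left out. Ifng itself lay far under the array median, at 3.82 ± 0.14 in metastases and 3.76 ± 0.17 in primary tumours. Of 7 genes of CD40 signalling, 2 were lower, Traf2 (-1.02, SE 0.29) and Relb (-1.07, SE 0.29), and Nfkb2 was higher (0.83, SE 0.22). The calls of Traf2 and Relb were lost with the replicate block, and all 3 were lost with metastasis 3 or with primary tumour 1, 2 or 3 left out.

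**Figure D3:**
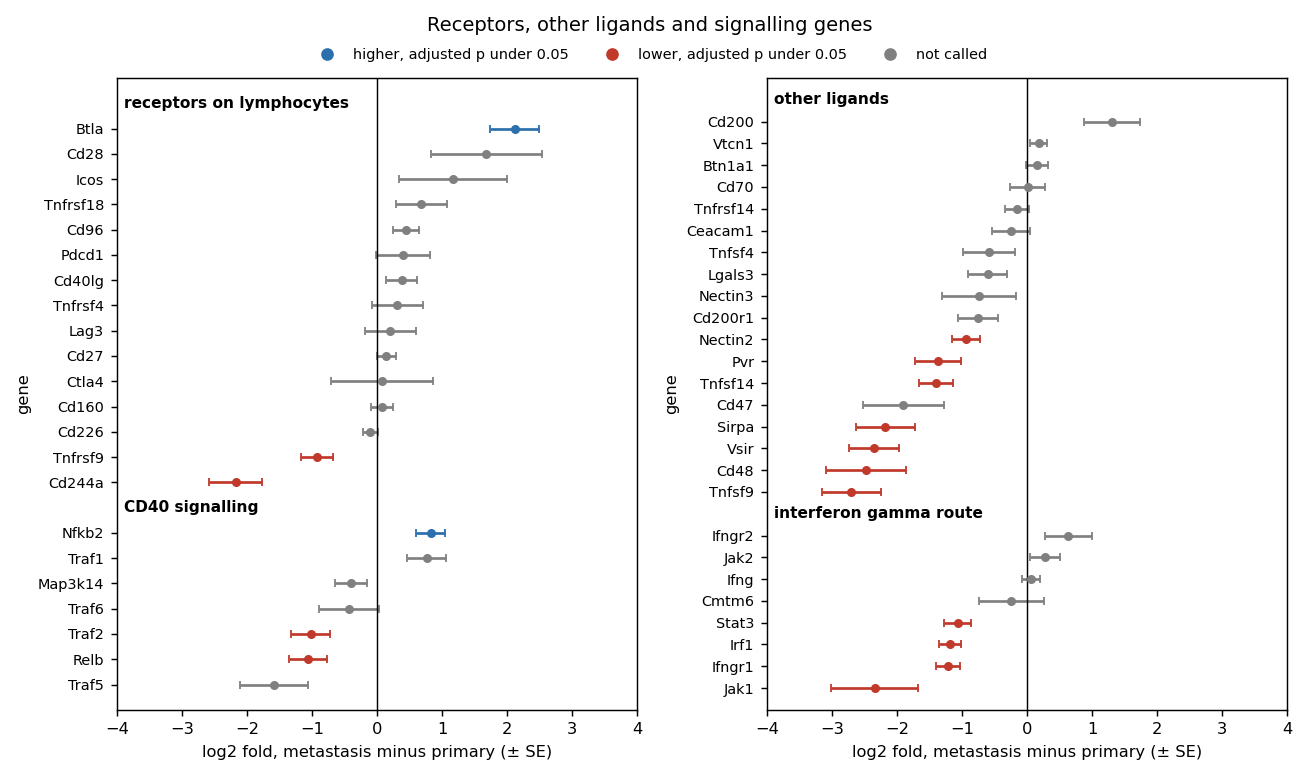
Log2 difference, metastasis minus primary, with its SE (horizontal axis) for the brightest probe set of each of 48 genes, grouped by list, red where lower, blue where higher and grey where not called. Calls in the list of other ligands, which also holds receptors, and among the interferon gamma genes all lie left of 0. In the list of lymphocyte receptors, which also holds Cd40lg, 12 of 15 genes are grey.

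Marker lists of cells that can carry these ligands moved in different directions. Of 10 macrophage markers, metastases had 9 called lower and none higher, with a median log2 difference of -2.90, and the mean log2 signal of the list was 7.96 to 9.75 in metastases and 10.87 to 11.85 in primary tumours. Metastasis 2 held the highest macrophage mean of its group, and also the highest granulocyte and dendritic cell means and the highest means of all 4 pathway lists. Mrc1, Fcgr1 and Cd68 fell by 4.21, 3.78 and 3.46 on the log2 scale (SE 0.70, 0.47 and 0.60), and all 10 markers had group means above the array median. The calls of Mrc1 and Cd68 were lost without mouse 3, and that of Cd68 also without mouse 4. The part of macrophage content in the falls was not tested, and in bulk samples fewer cells of a type and less RNA per cell cannot be told apart.

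B lineage markers, whose cells also carry CD40, CD80, CD86 and ICOS ligand, were called higher in 5 of 8 cases and lower in none, with list means of 8.01 to 9.55 in metastases and 5.93 to 6.19 in primary tumours. Ebf1, Cd79b and Ms4a1 rose by 6.98, 4.31 and 4.03 on the log2 scale. Granulocyte markers were higher in 6 of 8 cases, with list means of 9.88 to 10.73 in metastases and 6.20 to 6.88 in primary tumours, led by Ngp (6.33), S100a9 (5.33) and S100a8 (4.57). Dendritic cell markers split, with Siglech higher (1.27, SE 0.14) and Itgax lower (-1.49, SE 0.45) of 7, and list means of 6.87 to 7.66 in metastases and 6.69 to 7.69 in primary tumours. The Itgax call was lost with any single array but metastasis 2 left out. Of 8 T and NK cell markers Klrd1 alone was called (2.08, SE 0.36), and Klrd1 lost the call without mouse 3. The list means were 5.80 to 6.48 in metastases and 5.60 to 6.36 in primary tumours. Of 5 endothelial markers 0 were called, with list means of 4.96 to 5.50 in metastases and 5.13 to 5.65 in primary tumours. Dcn and Ibsp were higher (2.51 and 2.74) and Pdgfra lower among 8 fibroblast and osteoblast markers, whose means were 7.76 to 8.49 in metastases and 6.99 to 8.32 in primary tumours.

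The label of epithelial cells was checked with 11 epithelial markers, with Krt19 (-3.36, SE 0.64) and Cldn4 (-1.55, SE 0.33) called lower and none called higher. The Cldn4 call was lost without mouse 2 or mouse 4. The keratins Krt8 and Krt18 were not called but set metastases 1 and 3 apart. Krt8 had log2 signals of 7.34, 12.39, 9.80 and 12.97 in the metastases of mice 1 to 4, against 13.07 to 13.32 in primary tumours. Krt18 had 6.05, 10.95, 8.49 and 11.86 in metastases, against 11.37 to 11.95 in primary tumours. The mean log2 signal of the list was 6.13 to 7.68 in metastases and 7.63 to 8.52 in primary tumours, and 3 of the 11 lay under the array median in metastases and 1 in primary tumours. Macrophage, B lineage and granulocyte markers lay above the array median in metastases, and macrophage and granulocyte markers did so in primary tumours.

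**Figure D4:**
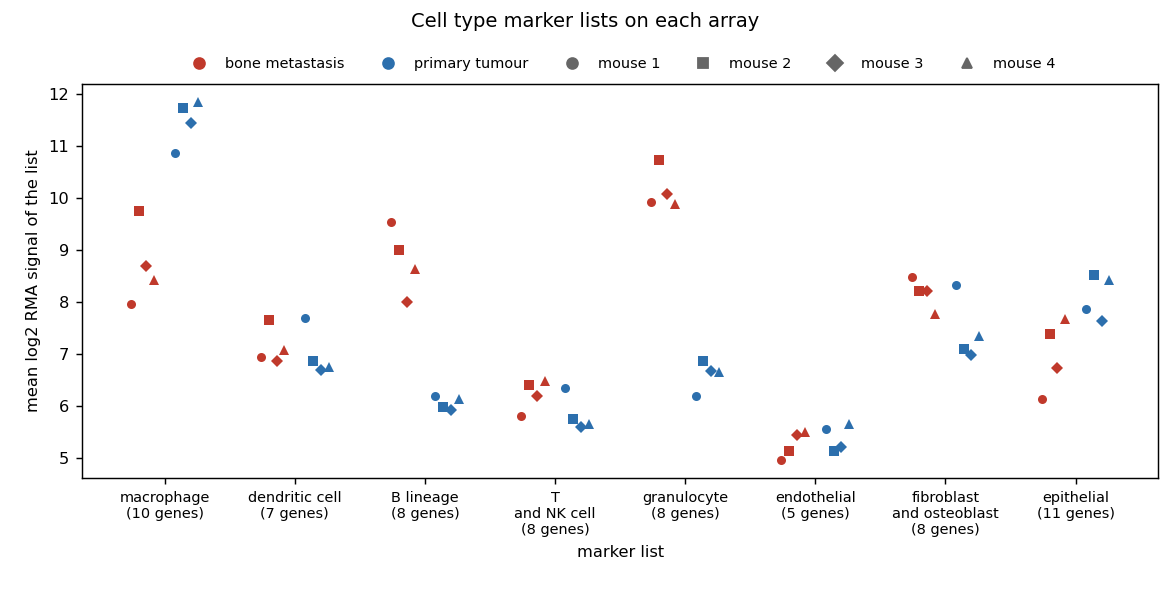
Mean log2 RMA signal of each marker list (vertical axis) on every array, bone metastases in red to the left of primary tumours in blue, marker shape giving the mouse. Macrophage means are lower and B lineage and granulocyte means higher on all metastasis arrays, and T and NK cell means overlap.

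The genes with the pattern nearest to a called member were found by the root mean square (RMS) difference over the 8 arrays, each gene centred on its own mean log2 signal. The measure was run for the brightest called probe set of each called gene, so not for Cd86 1449858_at or Cd40 1460415_a_at. Nearest to Cd274 were Sqstm1 (RMS 0.13), an autophagy receptor, and Cd83 (0.14), an activation marker of dendritic cells. Sqstm1 had log2 signals of 9.89, 11.62, 10.13 and 9.75 in metastases and 12.16, 12.71, 12.79 and 12.66 in primary tumours. Metastasis 2 was the highest there, but Sqstm1 was picked for its nearness to Cd274, so the shared order is not separate evidence. For Cd86 probe set 1420404_at the nearest were Cd74 (0.10), the invariant chain of MHC class II, and Slc16a6 (0.18). Skap2 (0.12) and Tmbim4 (0.15) were nearest to Cd80 probe set 1432826_a_at, and Tmem222 (0.11) and Lsm2 (0.11) to Cd40 probe set 1449473_s_at. Neither Tmem222 nor Lsm2 was itself called, and Lsm2 lay under the array median in both groups.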

How the data were processed

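Gene expression was measured on 8 arrays. The authors deposited 1 log2 signal per probe set and array, and the submitters' processing notes name RMA with no version. RMA corrects background, quantile-normalizes arrays and summarises probes, so a level can be compared between arrays but not between probe sets. Statements that a probe set is dim, or lies above or under the array median, are therefore rough. Per the labels' protocols, RNA went through 2 rounds of amplification, which favours 3′ ends. Precision is limited by the number of arrays (median SE of a log2 difference 0.21).

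Of 45101 probe sets, 34945 had a single symbol and were fitted together, while 64 controls, 932 with several symbols and 9160 with none listed were left out. Differences are metastasis minus primary (limma 3.58.1, lmFit and eBayes, R 4.3.3, two-sided, no filter and no block), with Benjamini-Hochberg adjustment over all fitted probe sets. Exact permutation tests used scipy 1.17.1 with Python 3.11.15, and the smallest p was 0.0286. On simulated arrays of 34945 probe sets this fit recovered 36% of differences of size 1 and 79% of size 2 on the log2 scale. The simulation changed only a small share of probe sets and gave both groups the same spread. Recovery in the real arrays may therefore differ from these rates. Same-numbered arrays came from 1 mouse per the series' design text. Their deviations from the group means correlated at 0.16 in mouse 1, -9.2e-06 in mouse 2, 0.025 in mouse 3 and -0.10 in mouse 4. The members, lists and tests were chosen with earlier results of these data known. Beside all members, the genes named from each list were at most 3 higher and 3 lower, the largest called differences with 1 direction in all 4 mice. Also named were the interferon gamma genes Irf1 and Ifng, the receptor genes Pdcd1, Cd28, Ctla4 and Icos and the ligand gene Cd40lg, whatever their values. The other called genes of the pathway lists (Sirpa, Tnfsf14, Pvr, Nectin2 and Stat3) and Pdgfra were added after their values were seen. Alternatives were other scalings, a filter on dim probe sets, a replicate block, another variance model, gene-wise tables, an actin covariate and omitted arrays or mice.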

Additional observations from a re-analysis of the deposited data

Results flagged for a closer look

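In 8 of 100 groups of 4 arrays examined, 1 array stood far from the other 3 (by Dixon's test at the 95% level), where chance gives about 1 in 20. Of the member probe sets, Cd80 1427717_at had 3.80 log2 signal on primary array 4, with the others at 4.30 to 4.39. Cd80 1451950_a_at had 6.25 on primary array 3, with the others at 6.36 to 6.37. Cd40 1449473_s_at had 10.77 on primary array 4, with the others at 10.19 to 10.25, and without that array its call was lost (limma adjusted p = 0.0787). Elsewhere Btla stood at 8.70 on metastasis array 2 (others 7.39 to 7.49) and S100a9 at 11.75 on metastasis array 1 (others 13.08 to 13.20). Among primary arrays Ifngr1 stood at 9.32 on array 4 (others 8.99 to 9.04), Siglech at 5.79 on array 3 (others 5.41 to 5.46) and Cd79b at 4.99 on array 2 (others 5.73 to 5.87).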

How the results depend on the processing

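Differences are log2, metastasis minus primary, and 6 of 16 member probe sets were called lower as reported. The count was 5 with scaling to the 75th percentile, 4 with quantile normalization, 7 with the replicate block, 6 with trend and robust eBayes, 8 of 13 with a filter on dim probe sets (21.2% of all those kept were lower), 2 of 9 with the brightest probe set per gene and 4 of 9 with the mean per gene. It was 4 with metastases 1 and 3 (low Krt8 and Krt18) left out, which gave 1 higher member, 7 lower and 2 higher pathway genes, and 8 lower marker genes. The 4 lower members there were Cd274, Cd80 1432826_a_at, Cd40 1460415_a_at and Lgals9, with neither Cd86 probe set among them. With the actin covariate, and with mice 1 and 2 alone, 0 members, pathway genes and marker genes were called in either direction, among 0 of all 34945 probe sets (4552 and 6780 at an unadjusted p under 0.05, limma, against 12235 as reported). The median member difference was -0.61 without metastasis 4, -0.55 without mouse 4 and -0.63 with mice 1 and 2 alone. The actin covariate raised the median SE to 0.70, against 0.21. With 1 array or mouse left out, the members called lower numbered 3 to 7, pathway genes lower 5 to 18 and higher 0 to 4, and marker genes lower 7 to 13 and higher 13 to 19. The replicate block gave 10 lower pathway genes, the mean per gene 1 higher. The median of all probe sets was 0.29 after scaling to the 75th percentile, against 0.09 as reported, with 4425 higher and 3553 lower calls, against 3046 and 4168. The calls of Cd274, Cd80 1432826_a_at and Cd40 1460415_a_at were kept in all alternatives run but the actin covariate and mice 1 and 2 alone. Signs turned with the actin covariate for Cd274 (0.14), Pdcd1lg2 (-0.10), Cd80 1427717_at (-0.056), 1432826_a_at (0.34) and 1451950_a_at (-4.02), Icosl 1419212_at (-0.76) and 1426087_at (-0.47), Cd40 1439221_s_at (-0.90), Lgals9 (1.94), Havcr2 (0.30), Cd40lg (-1.17), Cd244a (0.52), Cd48 (2.68), Ifng (-0.20), Jak1 (3.83), Traf2 (1.80), Relb (1.16), Cd68 (0.086), Mrc1 (1.94) and Itgax (1.48). They turned for Cd80 1454372_at (0.068) and Cd276 (0.074) with scaling to the 75th percentile, and for Cd276 (0.023) and Ifng (-0.067) with quantile normalization. With mice 1 and 2 alone they turned for Cd80 1451950_a_at (-0.85), Icosl 1419212_at (-0.070), Cd40 1439221_s_at (-0.12) and Ifng (-0.077), and with metastases 1 and 3 left out for Cd276 (0.11). With 1 array or mouse left out the ranges were -0.10 to 0.32 for Pdcd1lg2, -0.32 to 0.47 for Cd80 1451950_a_at, -0.22 to 0.30 for Icosl 1419212_at, -0.48 to 0.056 for Cd276, -0.028 to 0.32 for Cd40 1439221_s_at, -0.77 to 0.80 for Ctla4 and -0.047 to 0.19 for Ifng. The cause of these changes was not tested.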
